A study of Dicosmoecus gilvipes with 20 samples.

Results

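In larvae of the caddisfly *Dicosmoecus gilvipes*, 68 genes of the thorax had less RNA in each warmer group than in the next cooler one. The steps between groups ran from 15.5 to 20, from 20 to 25 and from 25 to 28.6°C. A gene here is a Trinity subcomponent, a set of contigs assembled from one group of overlapping reads, and its value is the sum of the estimated counts of its contigs. The 68 members were chosen by their measured values among 79612 subcomponents. A member had a mean of at least 100 scaled counts in 1 temperature, and its group median of log2(x + 10) fell by at least 0.3 at each step, by at least 1 from 15.5 to 25°C and by at least 1.5 from 15.5 to 28.6°C. Subcomponents annotated as cuticle, chitin, protease, myosin, titin or chaperone proteins had been set aside. Because temperature itself chose the members, their levels by temperature are a description, and the edgeR fold changes, standard errors and counts of calls given for them only set the size of a chosen difference beside the spread between libraries.

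Larvae in the last instar were collected from 1 stream and kept together in cool water. Separate groups were then warmed gradually over days, each to 1 of the 4 temperatures, held there for a day and frozen. Thorax RNA of each temperature was sequenced in 5 libraries, 20 in all, and the coolest group served as the baseline. All larvae were wild animals with no further treatment, and their sex was not given. The supplement of the study lists 8 larvae in 1 pool per temperature and the labels give 5 pools with equal RNA of each individual, so the 5 libraries of each group share their animals. Spread between libraries is therefore not spread between larvae. In such tissue RNA, fewer cells of a type and less RNA per cell cannot be told apart.

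The thorax was dissected by the study for its muscle and to leave out most of the digestive tract, and it also holds epidermis, fat body, trachea, nerve cord and blood. Insect fat body makes the proteins that carry lipid and store amino acids in the blood. Epidermis and blood cells lay down basement membrane and pigment and take part in defence against microbes. A stream insect has no control over its body temperature, so RNA of such genes is read in tissue that is as warm as the water.

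Depth ranged from 6756103 to 14236152 estimated counts. One subcomponent that resembles ribosomal RNA took 77.0% of replicate 4 and 45.0% of replicate 1 at 20°C and 0.49 to 15.1% elsewhere. It was left out, which left 2485595 counts in the shallowest library. Reads reached 188 bases in 8 libraries, of which 3 were of 15.5°C, 1 of 20°C, 4 of 25°C and none of 28.6°C, and at most 99 bases in the rest. Within 15.5°C, the longer and shorter libraries differed by a median of -0.02 log2 units over the members, against 0.00 over all 6990 subcomponents at the same level. Protein names come from the annotation in the deposited table of differentially expressed transcripts, so a name exists only for 528 subcomponents that the authors had already called. Names were found for 26 members, each the best match in another species. A further 30 members are in that table without a name and 12 are outside it.

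The members' summed level fell at each step without overlap between libraries. Scaled counts, divided by a size factor per library, summed over the 68 members to 84303 to 90781 at 15.5°C, 49806 to 57665 at 20°C, 27372 to 30229 at 25°C and 13932 to 17249 at 28.6°C. As a share of the counts left without the ribosomal-like subcomponent, the members made up 1.23 to 1.29%, 0.564 to 0.595%, 0.370 to 0.405% and 0.186 to 0.221%, respectively. Such shares moved for other genes too. Scaled by library size alone, the median log2 fold change of all 15220 subcomponents tested was -0.46 from 15.5 to 20°C and +0.35 from 20 to 25°C. The lowest sum at 20°C was that of replicate 4, the library with the most ribosomal-like counts, whose members lay a median of 0.13 log2 units below their group median. As a share of these counts, replicate 4 was also lowest at 0.564%, while replicate 1 had 0.590%. The part of ribosomal-like RNA in the level at 20°C was not tested.

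**Figure D1:**
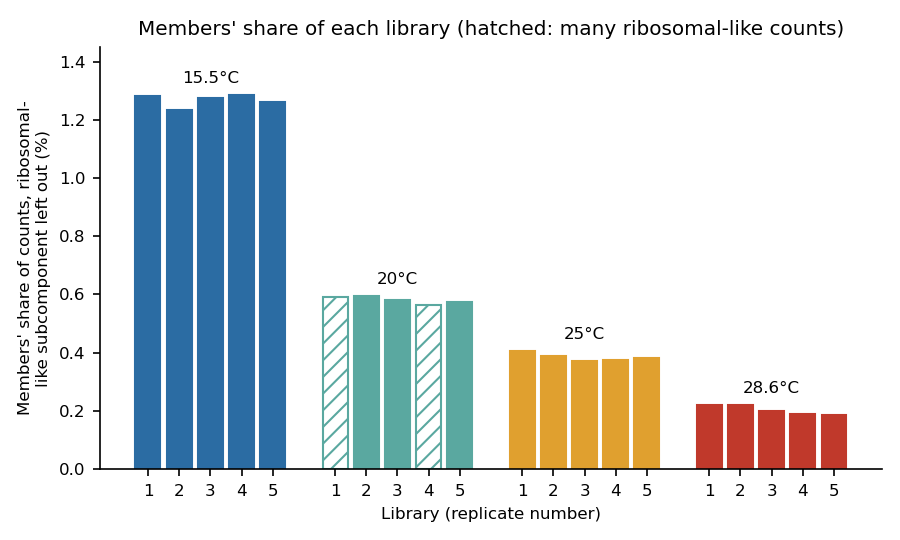
Share of each library's estimated counts, the ribosomal-like subcomponent left out, that the 68 members held, in percent on an axis that starts at 0, with 1 bar per library and hatching on replicates 1 and 4 of 20°C, where ribosomal-like RNA was high. The 5 bars of each temperature lie below all bars of the next cooler one, from 1.23 to 1.29% at 15.5°C down to 0.186 to 0.221% at 28.6°C. Scaled by library size alone, the median of all subcomponents tested also moved, by -0.46 log2 units from 15.5 to 20°C.

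Falls over the whole range had a median of 2.38 log2 units, against 0.06 over the 6990 subcomponents with a mean of at least 100 in some temperature. They ran from 1.51 to 5.75, with 45 members at 2 or more and 18 at 3 or more. The steps had medians of 0.72, 0.75 and 0.75, so that under this scaling no step was the main one for the list as a whole. For the same members scaled by library size alone, the medians were 1.16, 0.44 and 0.81, so the evenness depends on the scaling. With size factors, the largest step was the first in 23 members, the second in 24 and the third in 21. The steps differ in width, and per degree the medians were 0.161, 0.151 and 0.209. Per degree the fall was largest between 25 and 28.6°C in 34 members. A single step held more of the fall than the other two together in 21 members, while in 10 members each step held from 25 to 45% of it.

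**Figure D2:**
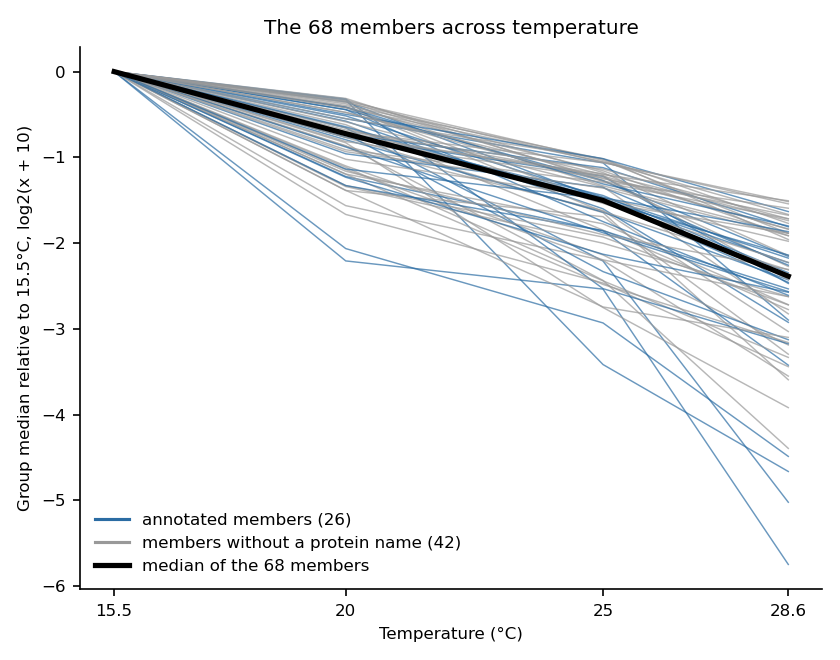
Group median of log2(x + 10) relative to 15.5°C, on the vertical axis, against temperature in °C for each of the 68 members (blue with a protein name, grey without) and for their median (black). The median lies 0.72 below the start at 20°C and 2.38 below it at 28.6°C, and single members end between 1.51 and 5.75 below their start.

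All 68 members had every library of 28.6°C below every library of 15.5°C, as had 38.7% of all subcomponents at level. From 15.5 to 20°C this held for 66 members (30.0% of all), from 20 to 25°C for 62 (24.7%) and from 25 to 28.6°C for 58 (30.3%). The groups were apart at all 3 steps in 51 members, a count for which no share over all subcomponents was computed. In edgeR's quasi-likelihood fit of all 20 libraries, 68 members were lower at 20 than at 15.5°C at an adjusted p below 0.05, beside 27.0% of the 15220 subcomponents tested. At 25 against 20°C there were 68 (23.8% of all), at 28.6 against 25°C 67 (29.4%) and at 28.6 against 15.5°C 68 (35.6%). The exception at the hottest step was comp31630_c0, which had means of 10.7 and 7.66 scaled counts at 25 and 28.6°C. Its log2 fold change there was -0.39, with a standard error of 0.24. These counts only restate the rule.

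The largest fall of all was that of a member named for matrix and adhesion proteins. Zonadhesin is a multidomain adhesion protein of mammalian sperm, and tenascin-X is a vertebrate matrix protein. One subcomponent, comp62844_c0, holds a contig matched to each of them at 27.4% and 24.9% identity, and 1 of its contigs was among the biomarkers the study had picked from these libraries. It had 1109, 1047, 1067, 1072 and 1057 scaled counts in the 5 libraries of 15.5°C and 225, 222, 223, 160.0 and 231 at 20°C. At 25°C the values were 174, 189, 158, 181 and 176, and at 28.6°C 19.8, 21.6, 9.27, 2.91 and 10.1. The level thus went down in a first and a last drop with a shelf between 20 and 25°C, where the libraries overlapped, with steps of 2.21, 0.33 and 3.21 log2 units. The edgeR log2 fold change from 15.5 to 28.6°C was -6.19, with a standard error of 0.135. Scaled by library size alone, the edgeR log2 fold change from 20 to 25°C was +0.06, with a standard error of 0.103, no longer a fall. In unique counts, reads that map to 1 contig only, the whole fall was 4.24 against 5.75 in the sum.

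Collagen alpha-2(IV) chain (comp59991_c0) is named for the collagen of basement membranes, the sheets under epithelia and around muscle. Its match is a weak one, at 17.6 to 21.8% identity with nematode chains. The libraries had 7648, 6459.8, 7318, 7772 and 7129 scaled counts at 15.5°C, 5021, 5089, 4998, 4624 and 4771 at 20°C and 3939, 3619, 3089, 3496 and 3339 at 25°C. At 28.6°C they had 1662, 1764, 975, 721 and 744. No group overlapped another, and the drop to 28.6°C held 63.3% of the fall of 2.90. Replicates 1 and 2 of 28.6°C were well above the other 3, so the size of the last drop varied between libraries of the same animals. Under 1% of its counts (0.808%) were unique, in which the fall was 1.77.

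Cadherin-89D (comp58059_c0), an adhesion protein of the cell surface known from *Drosophila*, had 218, 238, 229, 243 and 238 scaled counts at 15.5°C, 141, 140.0, 141, 174 and 126 at 20°C, 72.7, 86.2, 88.0, 78.1 and 81.1 at 25°C and 33.0, 29.7, 43.3, 38.8 and 46.4 at 28.6°C. Its steps of 0.71, 0.73 and 0.90 log2 units were nearly even and no groups overlapped. Peritrophin-1 (comp56997_c0), named for a chitin-binding protein of the membrane that lines the mosquito midgut, was at 794 ± 16.5 (SD, n = 5), 349 ± 29.7, 277 ± 6.85 and 155 ± 19.6 scaled counts at the 4 temperatures in order. The first step held 51.0% of its fall of 2.23. The second was a fall of 0.35, but scaled by library size alone its edgeR log2 fold change was +0.02, no longer a fall. Of the 14 subcomponents whose name matched the matrix and adhesion keywords, 4 were members, and of the other 10 the edgeR test called 7 lower and 3 higher at 28.6 than at 15.5°C. Over all named subcomponents tested, 304 of 527 were lower and 208 higher, and over all 15220 tested 36.4% were higher.

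The lipid group held 3 members, all with a single contig and only uniquely mapped reads. Apolipophorin-3 (comp53956_c0) is the exchangeable protein that coats lipid particles in insect blood. By FPKM, which accounts for contig length, it was among the most abundant members, with a median of 1683 at 15.5°C and 57.9 at 28.6°C. Its libraries had 11578, 10465, 11315, 11690.5 and 11063 scaled counts at 15.5°C and 9001, 9429, 9335, 8232 and 8909 at 20°C. At 25°C they had 1076, 1298, 977, 955 and 1052 and at 28.6°C 502, 538, 437, 431 and 433. No groups overlapped, and 66.2% of the fall lay between 20 and 25°C, where the step was 3.09 log2 units against 0.33 before and 1.25 after it.

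Pancreatic lipase-related protein 2 (comp54657_c0) belongs by its match, at 32.3% identity, to the family of lipases that free fatty acids from glycerides. It had 2526, 2472, 2335, 2496 and 2184 scaled counts at 15.5°C, 1729, 1753, 1565, 1283 and 1292 at 20°C, 558, 527, 483, 506 and 546 at 25°C and 84.8, 97.2, 66.5, 54.3 and 55.5 at 28.6°C. Each step was larger than the one before it, at 0.66, 1.55 and 2.81 log2 units, and the groups did not overlap. The edgeR log2 fold change over the range was -5.01, with a standard error of 0.111.

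Pancreatic triacylglycerol lipase (comp60703_c1) is named for another enzyme of that family. It had 272, 239.9, 226, 266 and 277 scaled counts at 15.5°C, 38.3, 70.0, 65.8, 39.1 and 56.1 at 20°C, 17.4, 28.7, 26.2, 24.8 and 27.3 at 25°C and 1.1, 0.90, 2.32, 2.91 and 4.03 at 28.6°C. The first step was the largest, at 2.06, and libraries of 28.6°C were close to no counts. The fall of 4.49 on the log2(x + 10) scale understates the change of so low a gene, for which the edgeR log2 fold change was -5.95, with a standard error of 0.168. Among the other 18 named subcomponents of the lipid list, 13 were lower and 4 higher at 28.6 than at 15.5°C in the edgeR test.

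Summed over each list, fat body, gut and muscle markers did not fall at every step. Single markers of fat body and gut did, apolipophorin-3 and peritrophin-1 among them. Fat body markers, 5 subcomponents with apolipophorin-3 among them, summed to 177670 to 191612 scaled counts at 15.5°C, 1232360 to 1493500 at 20°C, 127292 to 155866 at 25°C and 58069 to 90129 at 28.6°C. The rise at 20°C was mostly arylphorin subunit beta, a storage protein of larvae, which made up a median of 1.70%, 11.9%, 1.22% and 0.454% of counts without the ribosomal-like subcomponent. Gut markers, 37 subcomponents with peritrophin-1 among them, summed to 119300 to 128699, then 220897 to 269652, 91217 to 109345 and 48261 to 54445. By the edgeR test over the whole range, 33 of the gut markers were lower and 2 higher. Muscle, for which the thorax was taken, had 3 named markers and no member, with sums of 1696 to 1771, 2344 to 3245, 1333 to 1583 and 386 to 553. The muscle keywords included myosin and titin, and the gut keywords trypsin and carboxypeptidase, names that the rule set aside. Markers with such a name could not be members. The part of tissue make-up in the members' levels was not tested.

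**Figure D3:**
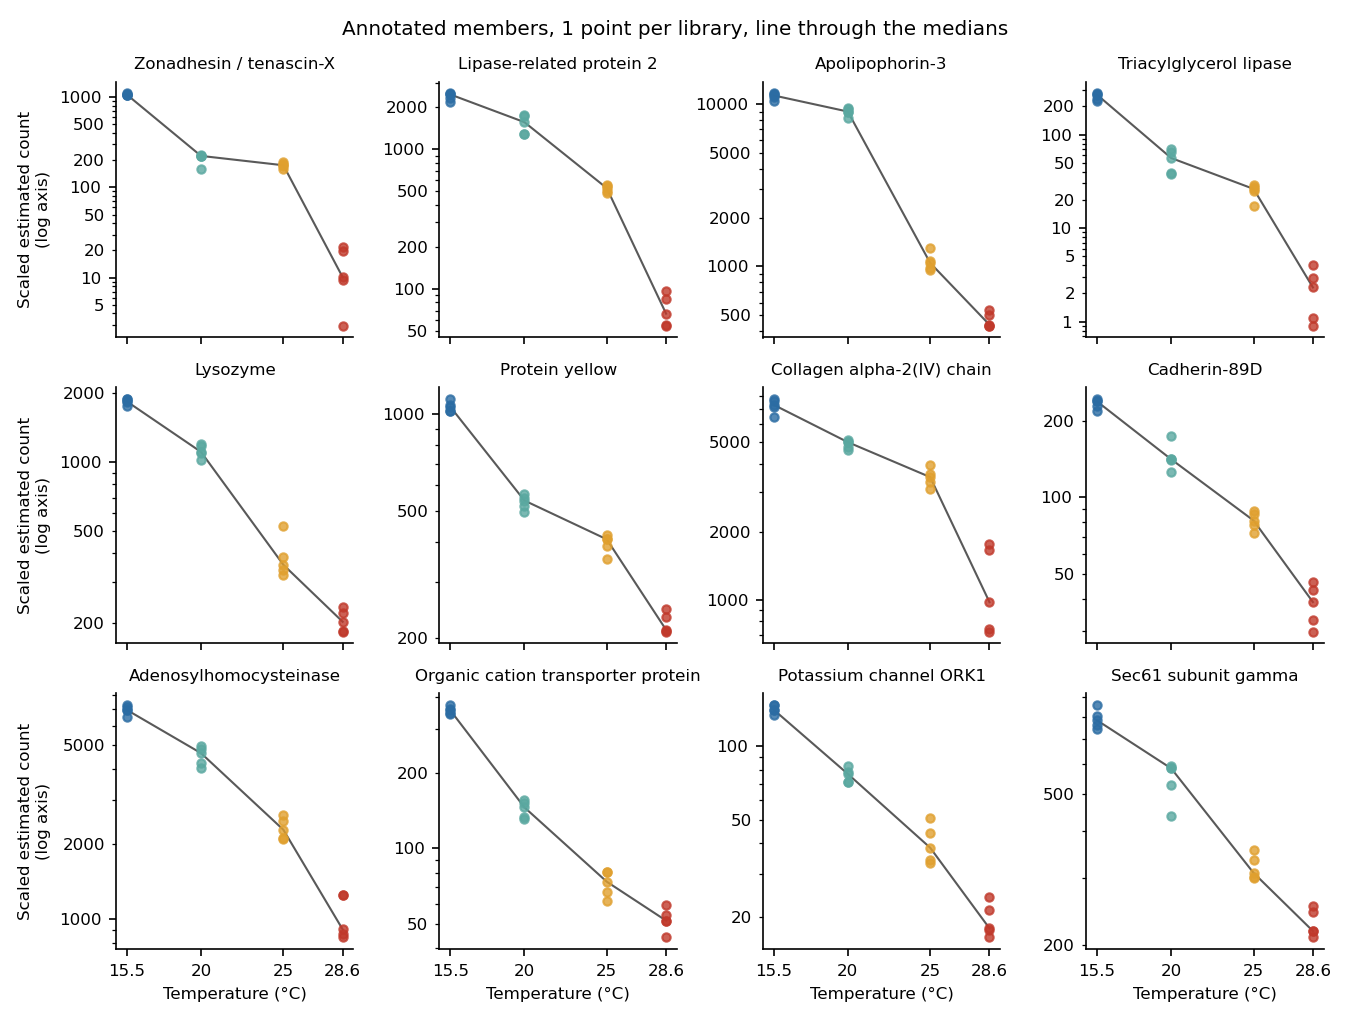
Scaled estimated counts, on log axes that differ between panels, against temperature in °C for 12 annotated members, with 1 point per library and a line through the group medians. Zonadhesin goes down in 2 drops around a shelf, apolipophorin-3 mainly between 20 and 25°C, and cadherin-89D and the potassium channel ORK1 in nearly even steps.

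The immunity and melanization list gave 2 members. Lysozyme (comp54048_c0), the enzyme that cuts bacterial cell walls, matched a moth lysozyme at 51.8% identity. It had 1830.3, 1836, 1880.1, 1884 and 1761 scaled counts at 15.5°C, 1107, 1176, 1196, 1095 and 1023 at 20°C, 524, 357, 385, 322 and 339 at 25°C and 184, 202, 233, 220.2 and 182 at 28.6°C. The groups were apart at each step, and 51.4% of the fall of 3.13 lay between 20 and 25°C.

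Protein yellow (comp57999_c0), which black pigment needs in *Drosophila*, had 1053, 1063, 1025, 1114 and 1019.8 scaled counts at 15.5°C and 494, 537, 516, 562 and 546 at 20°C. It had 421, 354, 409, 407 and 387 at 25°C and 233, 211, 213, 247 and 209.7 at 28.6°C. The first and last steps, 0.96 and 0.91, were larger than the middle step of 0.39, and the groups did not overlap at any step. Of the 9 other subcomponents in the list, 7 were lower and 2 higher at 28.6 than at 15.5°C in the edgeR test. The hemocyte markers, 3 subcomponents with no member, summed to 3128 to 3323 at 15.5°C, 2556 to 2687 at 20°C, 2816 to 3310.4 at 25°C and 623 to 789 at 28.6°C. The epidermis and cuticle markers, 12 subcomponents that the rule mostly barred by name, had a sum that was lower at each step, at 36814 to 39231, 24569 to 28434, 11883 to 13597 and 6352 to 7830. By the edgeR test 10 of them were lower and 2 higher at 28.6 than at 15.5°C. Their part in the members' falls was not tested.

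Transporters and channels gave 3 members. The organic cation transporter protein (comp62398_c0) had 374, 343, 346, 355 and 359.8 scaled counts at 15.5°C, 131, 152, 133, 156 and 146 at 20°C, 73.5, 80.7, 61.8, 80.0 and 66.6 at 25°C and 44.1, 54.0, 59.5, 51.4 and 51.4 at 28.6°C. Its steps shrank with warming, at 1.23, 0.90 and 0.44 log2 units, and the groups did not overlap. A second subcomponent with the same protein name, comp61222_c0, met every threshold except that on level, with a highest group mean of 95.5. The facilitated trehalose transporter Tret1 (comp64570_c2), named for the silkworm carrier of trehalose, the main sugar of insect blood, was at 238 ± 6.44 (SD, n = 5), 140.3 ± 17.7, 93.7 ± 11.8 and 35.4 ± 5.37 in order, with the largest step, 1.25, at the end. It was the only member among 31 subcomponents of the carbohydrate list, whose other 30 had 23 lower and 4 higher at 28.6 than at 15.5°C. Open rectifier potassium channel protein 1 or ORK1 (comp64387_c0), a channel through which potassium leaks out of *Drosophila* cells, had 134, 139.9, 147, 147 and 141 scaled counts at 15.5°C, 71.4, 76.9, 78.2, 71.1 and 82.5 at 20°C, 50.6, 34.3, 44.0, 33.3 and 38.4 at 25°C and 16.5, 18.0, 17.8, 21.3 and 24.2 at 28.6°C. It fell by 0.79, 0.84 and 0.79, the most even course among the named members, with groups apart at each step. Of the other 26 subcomponents of the transporter list, 18 were lower and 8 higher at 28.6 than at 15.5°C in the edgeR test.

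Enzymes of small-molecule metabolism came from several pathways. Adenosylhomocysteinase (comp56565_c0), which clears the product left when methyl groups are transferred, had a close match, at 79.9% identity with a mosquito protein. It had 7291, 7135, 6947, 6945 and 6511 scaled counts at 15.5°C, 4985, 4814, 4654, 4056 and 4230.1 at 20°C, 2619.7, 2476, 2099, 2113 and 2286 at 25°C and 1246, 1245, 907, 866 and 842 at 28.6°C. Its steps grew, at 0.58, 1.02 and 1.32, and no groups overlapped. The edgeR log2 fold change over the range was -2.74, with a standard error of 0.092. In unique counts, 4.46% of its reads, it fell by 2.37 against 2.92 in the sum. The keyword list for amino acids and one-carbon units also took in a splicing factor by the word arginine, and its 22 further subcomponents had 12 lower and 10 higher.

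The tricarboxylate transport protein of mitochondria (comp62258_c2), a carrier of citrate out of the organelle, had means of 683 ± 32.8 (SD, n = 5), 400.0 ± 27.3, 228 ± 21.7 and 171 ± 18.2 scaled counts in order. Replicate 5 of 25°C had 190.4 and replicate 5 of 28.6°C 188, the nearest approach of those groups. Dihydroorotate dehydrogenase (comp58205_c0), an enzyme of pyrimidine synthesis, was at 131 ± 11.4 (SD, n = 5), 75.0 ± 13.5, 55.3 ± 4.44 and 32.2 ± 3.42, with overlap between 20 and 25°C. Of the other 28 subcomponents of the mitochondrial list, 16 were lower and 12 higher. The keyword list also took in zonadhesin, whose name holds the letters of a mitochondrial cofactor, so 2 of its 3 members belong there by name.

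Esterase FE4 (comp64770_c2), named for an aphid esterase that breaks down insecticides, was the only member among 52 subcomponents of the detoxification list. It had means of 152 ± 10.9 (SD, n = 5), 105 ± 9.57, 52.7 ± 5.54 and 25.8 ± 4.16 scaled counts in order, with the largest step, 0.95, in the middle. Of the other 51 subcomponents 39 were lower and 10 higher at 28.6 than at 15.5°C.

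RNA-binding and secretory proteins each gave few members. Serine/arginine-rich splicing factor 7 (SRSF7, comp54442_c0), which guides the splicing of messenger RNA in vertebrates, had 409, 364, 367, 364 and 385 scaled counts at 15.5°C, 252, 267, 284, 267 and 270.2 at 20°C, 147, 135, 168, 140.0 and 146 at 25°C and 72.7, 74.7, 61.8, 82.5 and 82.7 at 28.6°C. No groups overlapped, with steps of 0.44, 0.83 and 0.88. It was the only member among 42 subcomponents of the transcription and RNA-binding list, in which the other 41 were mostly higher at 28.6 than at 15.5°C, 27 against 12 lower in the edgeR test. Sec61 subunit gamma (comp58475_c0), a part of the channel through which new proteins enter the endoplasmic reticulum, had the closest match of all, at 89.7% identity with a cricket protein. Its libraries had 861, 763, 742, 803 and 783 scaled counts at 15.5°C, 594, 587, 585, 437 and 529 at 20°C, 357, 335, 309.9, 303 and 300.5 at 25°C and 244, 218, 209, 254 and 218 at 28.6°C, with the low value at 20°C in replicate 4. The groups did not overlap and the middle step, 0.89, was the largest. Only 1 of its 21 contigs carries the name, with 363, 176, 44.6 and 38.4 scaled counts as means in order and overlap between 25 and 28.6°C, while an unnamed contig went from 218 to 135 at that step. Of the other 11 subcomponents of the synthesis and secretion list, 9 were lower and 2 higher.

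Named members outside these lists were 8, muscleblind among them. Phosphatidylethanolamine-binding protein 1 (comp58813_c0), known in mammals as an inhibitor of a growth signal, had 174, 188, 145, 150.4 and 181 scaled counts at 15.5°C, 76.6, 69.0, 60.8, 81.8 and 55.3 at 20°C, 38.7, 42, 38.4, 41.0 and 58.0 at 25°C and 12.1, 7.2, 6.96, 7.76 and 6.05 at 28.6°C. The groups of 20 and 25°C overlapped through replicate 5 of each. The word list for nervous tissue holds it by its name alone, and the 7 subcomponents found there summed to 2829 to 3081 at 15.5°C and 3876 to 4096 at 28.6°C. Apolipoprotein D (comp63055_c4), a lipocalin that binds small lipids, had means of 535 ± 8.54 (SD, n = 5), 198 ± 32.6, 144 ± 13.2 and 90.3 ± 12.2 scaled counts in order, with replicate 4 of 20°C, at 142, inside the range of 25°C. Venom acid phosphatase (comp54679_c2), named for a honeybee enzyme, was at 554 ± 25.2 (SD, n = 5), 409 ± 33.3, 161 ± 8.19 and 88.1 ± 19.9, and the middle step of 1.31 was its largest. In alpha-taxilin (comp62433_c0), a partner of vesicle fusion proteins in mammals, the first step was small at 0.35, and the means were 1109.7 ± 26.8 (SD, n = 5), 874 ± 26.9, 387 ± 8.78 and 202 ± 22.7. Both genes thus changed less between 15.5 and 20°C than above it. The sum of comp61262_c0 was at 229 ± 17.2 (SD, n = 5), 146 ± 10.9, 73.4 ± 8.55 and 39.5 ± 6.77, with steps of 0.64, 0.87 and 0.63. Its name, growth/differentiation factor 8, after a vertebrate inhibitor of muscle growth, comes from 1 of its 9 contigs, which matched at 29.5% identity and held 6.07% of the counts at 15.5°C and 0.016% at 28.6°C, so the level is that of contigs without a name. A subcomponent matched to the yeast transcription factor subunit UAF30 (comp61480_c0) had 226 ± 25.2 (SD, n = 5), 111 ± 12.3, 51.7 ± 5.17 and 29.4 ± 7.24. The subcomponent comp56244_c0, with 1 contig of 775 bases matched at 39.3% identity to an uncharacterized protein of an insect baculovirus, fell by 3.17, and 69.7% of that lay between 20 and 25°C.

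**Figure D4:**
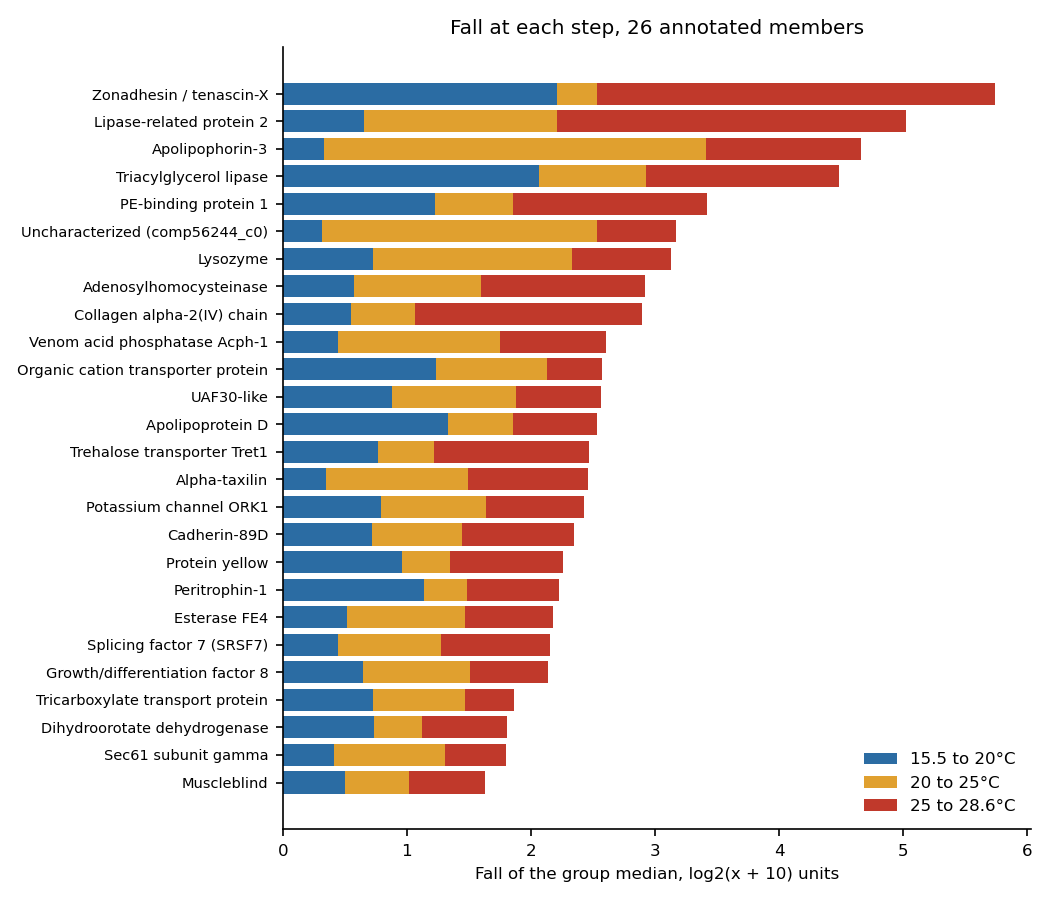
Fall of the group median of log2(x + 10) at each of the 3 steps, stacked as bars from 0 and ordered by the whole fall, for the 26 members with a protein name. The middle step makes up most of the bar of apolipophorin-3 (3.09 of 4.66), the last step most of that of collagen alpha-2(IV) (1.83 of 2.90), and ORK1 is divided almost evenly.

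No member carried a name of the storage and yolk, takeout and hormone carrier, cytoskeleton or cell cycle lists. In the takeout list 6 of 10 subcomponents were lower and 2 higher at 28.6 than at 15.5°C. In the storage list 3 of 4 subcomponents were lower at 28.6 than at 15.5°C, but they had peaked at 20°C. In the cytoskeleton list 3 of 9 were lower and 5 higher, and in the cell cycle list none of 3 was lower and 2 were higher, by the same edgeR test at an adjusted p below 0.05.

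Most members, 42 of 68, had no protein name. The member with the most reads was among them, comp50807_c0, a gene of 2 contigs. It had 12613, 11550.4, 11767, 12655 and 10925 scaled counts at 15.5°C, 8453, 8626, 8772, 6928 and 7766 at 20°C, 5489, 5115, 5335, 4524 and 4856 at 25°C and 4853, 4632, 3796, 4138 and 3711 at 28.6°C. It had the smallest fall of all members, 1.51, and the libraries of 25 and 28.6°C overlapped. The largest fall without a name, 4.39, was in comp61138_c0, with steps of 0.86, 1.57 and 1.96. It had 2392, 2277, 2369.7, 2503 and 2473 scaled counts at 15.5°C, 1398, 1310.3, 1252, 1159 and 1313 at 20°C, 496, 381, 366, 434 and 478 at 25°C and 132, 104, 92.0, 97.0 and 109 at 28.6°C. The other subcomponent of its Trinity component, comp61138_c1, is named larval cuticle protein 1, was set aside by the rule, and fell by 0.71, 1.53 and 2.04. In the same way comp60508_c2 (fall 3.92) shares a component with a subcomponent named trypsin-5 (2.98) and comp37858_c0 (2.31) with an endocuticle glycoprotein (2.40). The rule read names per subcomponent, so these 3 stayed in. Further high members without a name were comp54966_c0, which went from 4359 ± 116 to 652 ± 45.7 scaled counts (SD, n = 5), comp61705_c1, from 4309 ± 151 to 591 ± 40.1, and comp61234_c0, from 3014 ± 209 to 295 ± 22.3. The last of these had a shelf like that of zonadhesin, with falls of 1.39, 0.31 and 1.60. Its edgeR log2 fold change at the middle step was +0.01 when scaled by library size alone, no longer a fall.

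Among the 42 members without a name, the largest step was the first in 17, the second in 13 and the third in 12. Falls of 3 or more were seen in 11 and falls below 2 in 19. The largest first step among them, 1.66, was in comp38130_c0, a single contig of 1971 bases with means of 111 ± 11.5 (SD, n = 5), 27.1 ± 7.67, 12.1 ± 2.68 and 0.73 ± 0.42 scaled counts in order, so that nearly no reads were left at 28.6°C. The contig of comp62290_c0 also dropped first, with means of 338 ± 21.9, 118 ± 22.7, 65.8 ± 9.55 and 20.4 ± 6.42 and a first step of 1.56. The other early members included comp59168_c0, at 148 ± 5.11 at 28.6°C after 411 ± 24.3 at 20°C, and comp37895_c0, whose steps shrank from 1.14 to 1.05 and 0.43.

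A late course was seen in comp55856_c1, with 424 ± 55.1 (SD, n = 5), 277 ± 45.8, 140 ± 30.1 and 29.0 ± 14.3 scaled counts and a last step of 1.95, and in comp61689_c1, where the last step of 1.21 followed 0.68 and 0.53. A middle course was seen in comp65308_c0, with 112 ± 5.01 at 20°C and 43.5 ± 7.46 at 25°C, and in comp60508_c2, whose middle step was 1.92. The course of comp58083_c1 was even, at 1.1, 1.04 and 1.05 log2 units, with means of 216 ± 8.53, 92.6 ± 21.7, 39.8 ± 6.52 and 16.4 ± 5.22. A single contig made up 19 of the 42, and 3 of these were shorter than 300 bases. Spread between libraries was wide in those short contigs, as in comp48507_c0 (256 bases), where means of 86.0 ± 24.6 at 20°C and 59.3 ± 18.1 at 25°C came from overlapping libraries.

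The sums rest on contigs that share reads to different degrees. Uniquely mapped reads made up a median of 81.7% of a member's counts, against 30.4% over all subcomponents at level, and 27 members had a single contig. Of the 157 contigs of members with a mean of at least 20 in some temperature, 150 fell by at least 0.3 log2 units over the range while 1, a contig of SRSF7, had a higher median with means of 14.8 and 14.0 at the ends. At least 20 unique counts per library at 15.5°C, as a mean, were left in 55 members. In unique counts alone 50 of these fell by at least 1.5 log2 units and 52 went down at all 3 steps. Their median fall was 2.24, against 2.43 in the sums of the same members.

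A protein name belongs to contigs and not always to the whole sum. In 22 of the 26 named members, the contigs with the name held at least 80% of the counts at 15.5°C. In the other 4, muscleblind, Sec61 subunit gamma, Tret1 and comp61262_c0, the named contigs held 37.5, 45.9, 61.7 and 6.07%, respectively. Their share was smaller at 28.6°C, at 5.96% in muscleblind, 16.8% in Sec61 subunit gamma and 8.18% in Tret1. The named contigs of muscleblind alone had means of 1361, 456, 156 and 68.4 scaled counts in order and fell by 4.14, against 1.63 in the sum. Those of Tret1 had 147, 35.8, 17.4 and 2.89, with overlap between 20 and 25°C, and fell by 3.61, against 2.47. The named contigs of apolipoprotein D went from 91.3% of its counts at 15.5°C to 41.8% at 28.6°C. How far the division of shared reads moved with temperature was not tested.

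For 5 members the unique reads gave a fall under 1.5. Apolipoprotein D (comp63055_c4) fell by 0.19 in unique counts and by 2.53 in its sum. Of its 3 contigs at level, 1 without a name held all unique reads and had means of 44.1, 47.8, 54.7 and 43.1 scaled counts in order. The 2 with the name had no unique read and went from 167 to 9.92 and from 321 to 27.8. Muscleblind (comp60320_c4), a regulator of splicing with 41 contigs here, had 3566, 3599, 3678, 3768 and 3551 scaled counts at 15.5°C, 2478, 2544, 2730.4, 2545 and 2723 at 20°C, 1699, 1777, 1888, 1839 and 1751 at 25°C and 967, 1071, 1155, 1242 and 1299 at 28.6°C. In unique counts it fell by 0.44, against 1.63 in the sum, the groups of 15.5 and 28.6°C still apart, and its edgeR log2 fold change over the range was -0.58 in unique and -1.64 in summed counts. SRSF7 fell by 1.42 in unique counts, and comp62949_c0 and comp62242_c0 by 0.46 and 0.60. Members with under 20 unique counts, 13 in number, could not be read this way, among them Tret1, esterase FE4, dihydroorotate dehydrogenase, the tricarboxylate transport protein and phosphatidylethanolamine-binding protein 1.

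**Figure D5:**
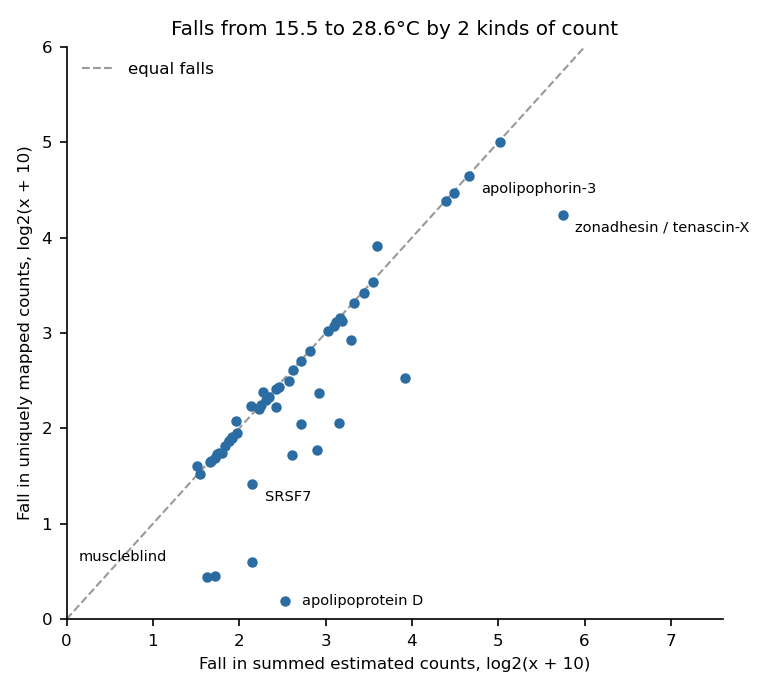
Fall from 15.5 to 28.6°C in uniquely mapped counts, on the vertical axis, against the fall in summed estimated counts, both in log2(x + 10) units, with 1 point for each of the 55 members with enough unique counts and a dashed line of equal falls. Most points lie on or near the line, and apolipoprotein D (0.19 against 2.53) lies farthest below it. Others well below it include comp62242_c0 (0.60 against 2.14), zonadhesin (4.24 against 5.75), comp60508_c2 (2.53 against 3.92), comp62949_c0 (0.46 against 1.72) and muscleblind (0.44 against 1.63).

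The members were otherwise ordinary in level. Their highest group mean had a median of 347 scaled counts, against 303 over all subcomponents at level, and their longest contig a median of 1849.5 bases, against 2468. The spread between libraries, as the SD of log2(x + 10), had a median of 0.08 at 15.5°C and 0.19 at 28.6°C, against 0.09 and 0.12 over all at level.

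A fall of 1.5 or more from 15.5 to 28.6°C was found in 341 subcomponents at level, and 77 of them met all thresholds, of which 9 were set aside by name. Of the 341, 253 missed 0.3 in at least 1 step, the first step in 154, the second in 86 and the third in 40, and 168 went up in at least 1 step. A further 11 reached every step but had fallen by less than 1 at 25°C. The mirror rule, every step up with the same sizes, was met by 78 subcomponents of 345 that rose by 1.5 or more, and by 77 after the same names were set aside. This number depended on the scaling, and by library size alone the mirror rule took 19 subcomponents beside 72 that fell. At the edges of the rule, the smallest step inside was 0.305 in comp50807_c0 and the nearest outside 0.279 in comp55966_c0. The fall to 25°C was 1.01 in muscleblind inside and 0.973 in comp64215_c1 outside, the whole fall 1.51 in comp50807_c0 and 1.44 in comp58684_c3, and the highest group mean 108 in comp60648_c0 and 95.5 in comp61222_c0. The low member comp60648_c0 went from 108 ± 12.7 to 3.0 ± 2.26 scaled counts (SD, n = 5).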

How the data were processed

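Thorax RNA-seq of 20 libraries, 5 at each of 4 temperatures and sequenced on 1 lane, was analysed. The authors trimmed reads (Trim Galore 0.3.0), assembled them without a genome (Trinity), mapped them (Bowtie2 2.0.6) and counted them (eXpress 1.5.1). In the deposited estimated counts, a read with several possible contigs is divided among them by likelihood. The deposited unique count takes only reads with 1 possible contig, and FPKM was computed by the authors per contig length and mapped fragments. Effective counts, expected counts corrected by the authors' program for length, served as an alternative. In the authors' table of 2586 differentially expressed contigs only the annotation text was used, and its 20 columns of centred log2 values were not.

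Estimated counts were summed per subcomponent and scaled by the median of ratios over 18621 subcomponents above 0 in all libraries. An SD is over 5 libraries. For edgeR 4.0.16 (R 4.3.3), sums were rounded, filtered at 2 CPM in 4 libraries and normalized by TMM, with 1 coefficient per temperature, the quasi-likelihood test, a threshold of 0.05 and Benjamini-Hochberg adjustment over 15220 subcomponents. A standard error is the size of the log2 fold change over the square root of F. The procedure was tested on simulated data.

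Members and keyword lists were chosen with earlier results of these data known. The naming rule took the 3 largest falls, the 8 largest with a protein name, the 3 members with the highest group mean overall and in each list, those next to each threshold and any holding a biomarker of the study. Further members were named after their values were seen. Alternatives were other scalings, filters, offsets, thresholds, kinds of count and tests (DESeq2 1.42.0), a block and each library left out. Tables and plots were made with Python 3.11.15, pandas 2.3.3 and matplotlib 3.10.9.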

Additional observations from a re-analysis of the deposited data

Results flagged for a closer look

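Series of 5 libraries, 92 in all, were checked for the members chosen by the naming rule and for the sum of all members. In 5 of them, 1 library stood far from the other 4 of its temperature. Its gap to the nearest took up most of the range. The limit used is Dixon's for 5 samples, which chance passes in about 1 of 20 groups. Zonadhesin had 160.0 scaled counts in replicate 4 of 20°C, the library with the most ribosomal-like RNA, and 222 in the nearest, a gap of 0.868 of the range. Phosphatidylethanolamine-binding protein 1 had 58.0 in replicate 5 of 25°C, beside 42 in the nearest (0.817 of the range), and 12.1 in replicate 1 of 28.6°C, beside 7.76 (0.718). The tricarboxylate transport protein had 741 in replicate 4 of 15.5°C, beside 677 (0.778), and 190.4 in replicate 5 of 25°C, beside 229.6 (0.714).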

How the results depend on the processing

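The number of members depended on the thresholds and the unit. It was 37 with log2(x + 50), all 37 among the 68, 43 in unique counts (40 shared), 28 with every step at least 0.5, and 141 when contigs were taken in place of sums, which represent 49 of the 68. The median fall was 2.55 when scaled by library size alone, 2.61 with log2(x + 1), 1.78 with log2(x + 50) and 2.0 in unique counts. Leaving out 1 library at a time gave 63 to 71 members and a median fall of 2.35 to 2.41, and leaving out replicates 1 and 4 of 20°C together gave 68 members, 64 of them shared. Library size alone moved the median of all subcomponents tested by -0.46 from 15.5 to 20°C, +0.35 from 20 to 25°C and -0.15 over the range. Members lower at 25 than at 20°C were then 50 in place of 68, beside 1347 in place of 3627 of all 15220 subcomponents tested. The rule then took 72 members, of which 44 (64.7% of the 68) were shared. Effective counts gave 98 members, 57 shared. The counts of members lower at each step stayed within 1.5 times under all 33 alternatives fitted, in edgeR or DESeq2. For the members chosen by the naming rule, the direction of all 717 recomputed fold changes from 15.5 to 28.6°C held, where the member passed the filter. The rule for members had required these falls in the same libraries, so both counts restate it and test nothing. Single steps did not all hold. By library size alone 65 of 68 members were negative at 25 against 20°C, and in unique counts 56 of 58 at 20 against 15.5°C. By DESeq2 triacylglycerol lipase had -6.82 in place of -5.95 and comp60648_c0 -5.15 in place of -4.46. Between libraries of the same replicate number, deviations from the group means correlated at -0.08 to 0.15, and at 0.09 to 0.15 for replicate 1. Libraries of unlike number were not compared, so pairing by number was not tested. With a replicate block 68, 68 and 67 members were lower at the 3 steps, beside 4173, 3690 and 4561 of all 15220 tested. Depth limits the lowest members at 28.6°C, where single libraries had a few reads.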

Other observations

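The subcomponents set aside by name were 9, among them larval cuticle protein 1, in comp61138_c1 with a fall of 4.28 and in comp60283_c4 with 3.6, a serine carboxypeptidase (4.6), zinc carboxypeptidase A (3.77) and trypsin-5 (2.98). The means of comp61138_c1 were 21989.9, 12936, 4659 and 1185 scaled counts at 15.5, 20, 25 and 28.6°C.

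Replicates 1 and 2 of 28.6°C had more than replicates 3 to 5 in several of the highest members, adenosylhomocysteinase (1246 and 1245 against 842 to 907), collagen alpha-2(IV), lipase-related protein 2 and apolipophorin-3 among them. Muscleblind went the other way (967 and 1071 against 1155 to 1299), and lysozyme and comp54966_c0 did not show the difference. Members' summed shares of counts, without the ribosomal-like subcomponent, were 0.221% and 0.220% in those 2 libraries and 0.186 to 0.199% in the other 3. The libraries share their larvae, and the source of the difference was not tested.

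The highest member by FPKM, comp47386_c0, had a contig of only 235 bases without a protein name, with a median of 6477 at 15.5°C and 703 at 28.6°C.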
